A study of Mus musculus with 4 samples.

Results

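The testis-specific serine kinases are a small family of protein kinases made in the haploid male germ cell. Tssk1, Tssk2, Tssk3, Tssk4, Tssk5 and Tssk6 were taken by gene symbol together with Tsks, which encodes a substrate of the family, giving 7 of the 55450 genes in the deposited matrices. Their RNA was counted cell by cell with the 10x Chromium 3′ assay in mouse testis that had been dissociated with enzymes. A high-fat diet (HFD) group and a normal-diet (ND) group of mice gave 2 libraries each. The comparison that the design implies is HFD against ND within each cell type. Strain, age, length of the diet and number of mice are not given in the sources used here, and neither is whether the libraries of a diet came from separate mice, so p-values measure the spread between these libraries only.

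Spermatids complete their development after the meiotic divisions, first as round cells and then as elongating cells whose histones are exchanged for transition proteins and protamines and whose cytoplasm is shed. In background knowledge, TSSK1 and TSSK2 bind and phosphorylate TSKS, and male mice lacking both kinases are infertile. TSSK6 is needed for normal chromatin condensation, and TSSK4 phosphorylates the outer dense fibre protein ODF2 of the sperm tail.

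Tssk1 lies at chr16:17894223-17897922 and Tssk2 at chr16:17898637-17900024 (GRCm38, GENCODE M21), both without introns, on the same strand and with 714 bases between them. Their predicted proteins of 365 and 358 residues were identical at 74.9% of 351 aligned residues, whereas the other 14 pairs of the 6 kinases were identical at 38.2% to 50%. The coding sequences of the pair shared a run of 113 bases, but their 3′ untranslated regions, where most 3′ reads fall, shared no word of 20 bases. Because Tssk1 and Tssk2 are so alike, the stretch around the catalytic loop is printed for each kinase, with the codons of the histidine-arginine-aspartate motif in capitals (36 coding bases, 5′ to 3′).
Tssk1: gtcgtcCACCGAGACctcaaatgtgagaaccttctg
Tssk2: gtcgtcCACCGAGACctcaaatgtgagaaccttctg
Tssk3: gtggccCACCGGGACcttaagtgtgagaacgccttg
Tssk4-204: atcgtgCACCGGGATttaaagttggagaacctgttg
Tssk4-201: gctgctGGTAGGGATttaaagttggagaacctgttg
Tssk5: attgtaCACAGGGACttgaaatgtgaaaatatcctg
Tssk6: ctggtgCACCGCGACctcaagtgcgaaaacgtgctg

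The Tssk1 and Tssk2 stretches were the same base for base. Tssk4 had 6 coding transcripts in the annotation, of which 2 carried a histidine codon at the first position of the motif and 4 a glycine codon. The 3′ counts cannot separate these transcripts, so Tssk4 values cover all of them. Tssk3 lies at chr4:129489014-129491022, Tssk4 at chr14:55650184-55652539, Tssk5 at chr15:76371952-76374938, Tssk6 at chr8:69902184-69903518 and Tsks at chr7:44943204-44958035. All of Tssk1 lies within Dgcr2 on the opposite strand, and Tssk6 overlaps Yjefn3 by 529 bases and Ndufa13 by 375 bases, also on the opposite strand. Whether strand was used in counting is not given in the sources used here, so a part of the Tssk1 and Tssk6 counts cannot be told apart from those genes.

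The libraries held 13561 to 15290 cell barcodes and 143748262 to 154221188 unique molecular identifiers (UMIs, each standing for 1 captured RNA molecule), and 54917 cells were kept. Any pair of libraries shared 34 to 59 barcodes. Cells were clustered without the 7 genes, and clusters were called after their nearest marker list ("late round-like", for example). The counts were 184 spermatogonia-like, 1857 early-spermatocyte-like, 11405 pachytene-like, 6768 late-spermatocyte-like, 9025 early round-like, 1493 late round-like, 4764 elongating-like and 821 condensing-like cells. A further 2755 cells in 3 clusters lay nearest the condensing list, but their top genes held more markers of elongating than of condensing spermatids. They are called Car2-led after 1 of their leading genes. Another 12343 cells, of median depth 1730 UMIs, stayed unnamed. Levels are given as CPM (UMIs of a gene per 1000000 UMIs of a class in a library), as mean ± SD over the 4 libraries. No test was made between stages, which were clustered from the same cells.

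In mean CPM, the genes reached their highest levels at successive stages. Some neighbouring classes overlapped, and the order of some classes differed in counts per cell, as given below. Tssk1, Tssk4 and Tssk5 were highest in early round-like cells, Tssk2 and Tsks in elongating-like cells, Tssk3 in Car2-led cells and Tssk6 in condensing-like cells. The plot of levels by stage and library shows this order, with the libraries of both diets close together at nearly every stage.

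**Figure D1:**
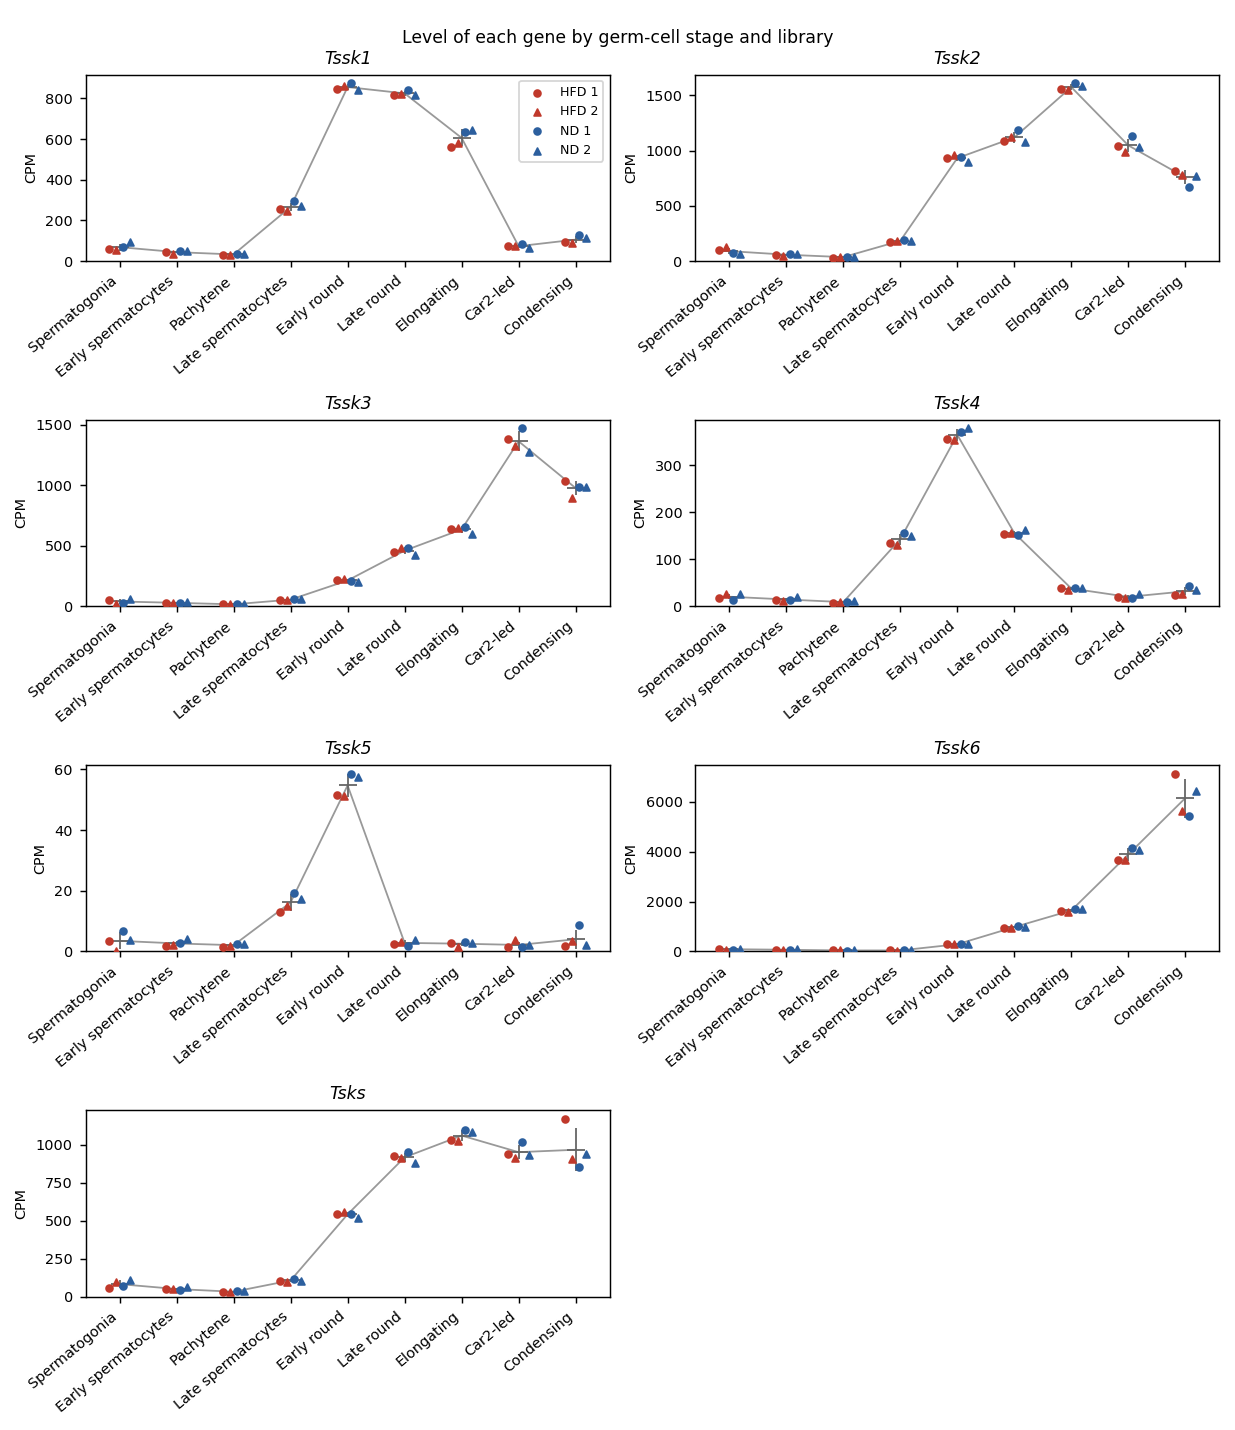
CPM (y axis) of each gene in 9 germ-cell classes (x axis). Circles and triangles are libraries 1 and 2, red is HFD and blue is ND, and the cross with its bar is the mean and SD of the 4 libraries. Tssk5 is high in early round-like cells at 54.7 and Tssk6 reaches 6150 in condensing-like cells.

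Tssk1 in early round-like cells measured 846 and 863 CPM in HFD 1 and HFD 2 and 876 and 841 in ND 1 and ND 2, a mean of 856 ± 16.1. It measured 825 ± 11.7 in late round-like cells, and the libraries of these classes overlapped. In elongating-like cells it was 606 ± 41.8, and in Car2-led cells 73.3 ± 8.93. Of the 7 genes, Tssk1 was thus one of the earliest to appear and to go. It was already at 267 ± 21.0 in late-spermatocyte-like cells, against 32.7 ± 3.31 in pachytene-like cells.

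Tssk4 and Tssk5 followed the early course of Tssk1 with a sharper end. Tssk4 in early round-like cells was 355, 354, 370 and 378 CPM in HFD 1, HFD 2, ND 1 and ND 2. It was 2.34-fold lower in late round-like cells, at 156 ± 4.58, which overlapped the 143 ± 11.8 of late-spermatocyte-like cells. Tssk5 in early round-like cells was 51.5 and 51.3 in the HFD libraries and 58.6 and 57.5 in the ND libraries. The next class was late-spermatocyte-like, 3.39-fold lower at 16.1 ± 2.80, and the remaining 7 classes lay between means of 2.04 and 3.99 and overlapped. Tssk5 UMIs were seen in 42.1% to 46.2% of early round-like cells per library, against 1.16% to 1.71% of Leydig-like cells, a steroid-making type that should lack it (class medians of 12376 and 5780 UMIs per cell).

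Tssk2, which shares so much of its coding sequence with Tssk1, lasted longer. In elongating-like cells it measured 1555 and 1551 CPM in HFD 1 and HFD 2 and 1611 and 1586 in ND 1 and ND 2, above the 932 ± 27.8 of early round-like cells in every library. It was still at 1048 ± 61.8 in Car2-led cells and 758 ± 63.6 in condensing-like cells. In Car2-led cells the level of Tssk1 was 11.7-fold lower than in its own highest class, and that of Tssk2 was 1.504-fold lower. In CPM, Tsks held its level later than its partner Tssk2. In Car2-led and condensing-like cells Tsks stood at 89.7% and 91.2% of its highest class, against 66.5% and 48.1% for Tssk2. Tsks measured 1036, 1027, 1100 and 1086 in elongating-like cells in the same library order. Its elongating-like, condensing-like, Car2-led and late round-like libraries formed an overlapping series with means from 919 to 1062.

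Tssk3 and Tssk6 were late genes. Tssk3 in Car2-led cells was 1380, 1322, 1467 and 1277 CPM in HFD 1, HFD 2, ND 1 and ND 2, above the 976 ± 57.4 of condensing-like cells and the 635 ± 26.0 of elongating-like cells with no overlap. Tssk6 had the widest span. It stood at 37.5 ± 1.65 in pachytene-like cells and 286 ± 8.42 in early round-like cells, and at 1643 ± 63.4 in elongating-like cells. Car2-led cells held 3667 and 3648 in the HFD libraries and 4162 and 4073 in the ND libraries. Condensing-like cells held 7128, 5615, 5429 and 6428 in the usual order, all above the Car2-led libraries and with the widest spread of any class. Tssk6 is 1 of the 10 leading genes of a Car2-led cluster, although it was not used to form it.

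Late spermatids hold little RNA, so a level relative to all UMIs can climb while the count per cell does not. Median depth was 11933 UMIs in late round-like cells and 1974 in condensing-like cells. Tssk6 averaged 13.4 UMIs per late round-like cell, 11.7 per elongating-like cell, 16.2 per Car2-led cell and 16.5 ± 3.81 per condensing-like cell, and was seen in 821 of 821 condensing-like cells. The exact 95% lower bounds per library were 98.0% to 98.5%, for counting error only, and 25.9% to 38.5% of the deeper Leydig-like cells had a Tssk6 UMI. Between the late round-like and condensing-like classes its level in CPM differed 6.31-fold, whereas its count per cell lay within 11.7 to 16.5. In the same 2 classes Tssk3 averaged 6.30 and 2.61 UMIs per cell. Tssk2 averaged 15.4 UMIs per late round-like cell, 11.2 per elongating-like cell and 2.04 per condensing-like cell, and Tsks 12.6, 7.55 and 2.62. Per cell, the late round-like libraries thus lay above the elongating-like libraries for both genes, the reverse of the order of their mean CPM. Per cell, Tssk3 measured 5.14 to 6.46 UMIs over the Car2-led libraries and 5.45 to 7.04 over the late round-like libraries, which overlap, so no order of these classes is read from the counts per cell.

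Within a named class, the clusters resolved the order further. The 8 early round-like clusters included one with 108 CPM of Tssk5 and 53.1 of Tssk6 (cluster 17) and another with 2.04 of Tssk5 and 830 of Tssk6 (cluster 26). Among late-spermatocyte-like clusters Tssk1 ranged from 23.7 (cluster 16) to 572 (cluster 6), and Tssk5 from 1.36 to 46.3 in the same clusters. Among elongating-like clusters Tssk1 ranged from 964 (cluster 25) to 108 (cluster 12). A class average therefore depends on which clusters fill it.

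**Figure D2:**
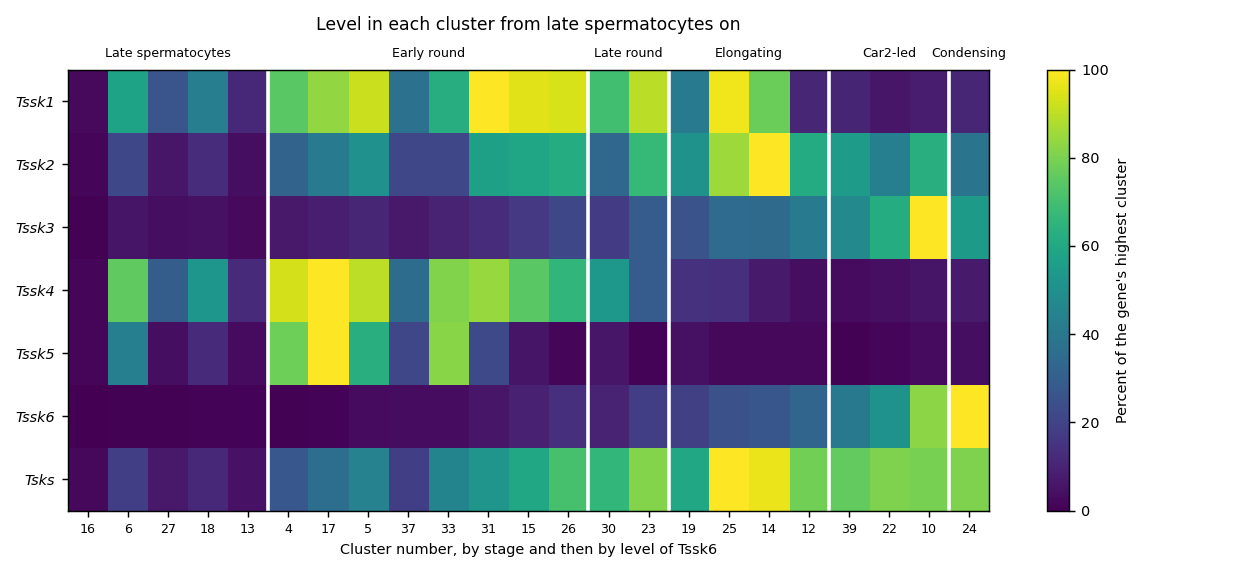
Level of each gene in each cluster from late-spermatocyte-like on, as a percent of the gene's highest cluster (colour). Clusters run along the x axis by class, and within a class by their Tssk6 level. Tssk5 is bright in a few early round-like clusters and dark from late round-like on, while Tssk6 brightens towards the right.

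UMIs of the 7 genes also turned up in somatic classes, and their source was not tested. The Sertoli-like class held 81457 CPM summed over 8 markers of elongating spermatids (196245 in elongating-like cells) beside 2652 CPM of its own 8 markers, and the Leydig-like class 5651 CPM of the former beside 17017 of its own 6. Sertoli-like cells, the nurse cells of the tubule, held 1071 ± 83.7 CPM of Tssk6, and Leydig-like cells held 75.3 ± 7.45. As a percent of each gene's highest germ-cell class, the 7 genes had a median of 21.3% in Sertoli-like and 4.69% in Leydig-like cells. For 30 spermatid marker genes these medians were 19.7% and 3.89%. The Leydig-like make-up of the 7 genes, with Tssk1 at 19.0%, Tssk2 at 23.2% and Tssk6 at 23.6% of their summed UMIs, lay near the whole-testis make-up of 19.7%, 25.6% and 20.03%. The Sertoli-like make-up did not, with Tssk1 at 7.28%, Tssk2 at 24.2% and Tssk6 at 40.4%. Tssk1 at 32.7 CPM in the pachytene-like class and 44.1 in the early-spermatocyte-like class was below the 60.5 of Leydig-like cells, and values of this size are not read here as expression by those cells. Per cell the order differed, with 0.513 and 0.484 Tssk1 UMIs in the 2 spermatocyte classes against 434 UMIs in 1281 Leydig-like cells.

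The make-up of the summed UMIs shifted with stage. In late-spermatocyte-like cells Tssk1 made up 33.0%, Tssk4 17.6% and Tssk6 4.81%. In condensing-like cells Tssk6 alone made up 68.3%. Early round-like cells held the largest share of all UMIs of Tssk5 (72.1%), Tssk4 (67.7%) and Tssk1 (59.4%), but 19.6% of Tssk6. These shares compare UMIs, which count molecules by their 3′ ends and need no scaling for length, but capture may differ between genes.

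**Figure D3:**
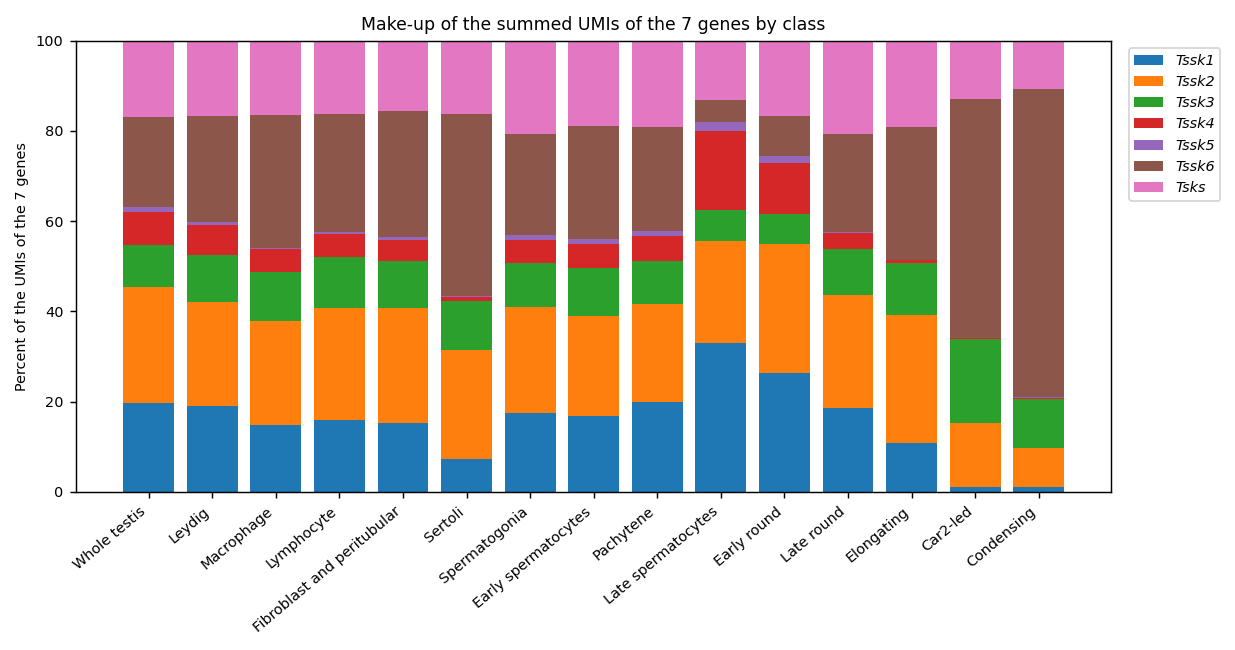
Share of each gene (y axis, percent) in the summed UMIs of the 7 genes, by class (x axis, mean of the 4 libraries), with whole testis and somatic classes on the left. Leydig-like cells resemble whole testis, with Tssk6 at 23.6% and 20.03%, while Tssk6 takes 68.3% in condensing-like cells.

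Over the means of the 9 germ-cell classes, Pearson's r of log2(CPM + 1) was highest among the members for Tssk2 and Tsks at 0.985, followed by 0.975 for Tssk3 and Tsks and 0.965 for Tssk3 and Tssk6. It was 0.742 for the neighbours Tssk1 and Tssk2 and -0.21 for Tssk5 and Tssk6. These values describe 9 classes from the same 4 libraries and carry no test. The 9 include classes whose levels are not read here as expression, so r takes in the step from those classes to spermatids. For Tssk5, all classes but the early round-like and late-spermatocyte-like lay between 2.04 and 3.99 CPM. Among 7158 other genes that reached 50 CPM in a class, the most alike in pattern were BC049762 for Tssk1 (0.996), 4933402J07Rik for Tssk2 (0.996), 1700009N14Rik for Tssk3 (0.995) and Kcne3, a potassium channel subunit, for Tssk4 (0.998). Itgad, an integrin subunit, was most alike for Tssk5 (0.986), Tppp2 for Tssk6 (0.997) and Zcchc13 for Tsks (0.996). Plcz1, the sperm phospholipase that activates the egg, was among the first 3 for Tssk2 at 0.990.

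Of the 7 genes, 6 matched an entry of the RefSeq promoter table (GRCm38.p6, 250 bases before to 50 after the start). On either strand, the full cAMP response element TGACGTCA was in none of the 6 and in 1.79% of 32851 promoters. The shorter TGACG, which the full element contains, was in that of Tssk6 and in 20.8% of all promoters. TATAAA, in 13.6% of all, and GTTGCC, in 12.5% of all, were in none of the 6. A match is a string of letters, not a measured site.

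For diet, counts were summed over all kept cells of a library and tested with edgeR's quasi-likelihood test, with p-values adjusted by the Benjamini-Hochberg method over all genes tested and called under 0.05. The CPM of the diet comparisons are scaled by TMM, edgeR's correction for library composition, and so differ slightly from the unscaled levels by stage given above. All 7 genes were lower in the HFD libraries of whole testis, in a comparison where 34.3% of 25470 genes were called. Tssk5 measured 15.8 and 15.5 CPM in HFD 1 and HFD 2 against 22.6 and 22.1 in ND 1 and ND 2, a log2 HFD/ND of -0.51 ± 0.0475 (SE) with an edgeR adjusted p of 7.05e-06. Tssk1 measured 325 and 309 against 407 and 390, a log2 difference of -0.33. Tssk4 differed by -0.39, Tssk2 by -0.27, Tsks by -0.26, Tssk6 by -0.21 and Tssk3 by -0.15. HFD and ND libraries did not overlap for any of the 7, with or without TMM, and the median of the 7 was -0.27 against -0.02 for all genes tested. How many of all genes had groups apart was not counted, so the lack of overlap is not read as particular to the members. Leaving out HFD 2 ended the calls of Tssk6 (-0.15) and Tssk3 (-0.11), and leaving out ND 1 ended that of Tssk3 (-0.07). The call of Tssk3, with an adjusted p of 0.0340, was also lost without a gene filter, with DESeq2's size factors, with DESeq2 and with each cell weighted equally, at edgeR, DESeq2 or limma adjusted p from 0.0510 to 0.153.

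In the same libraries named spermatids made up 31.5% and 30.8% of kept cells in HFD 1 and HFD 2 and 37.6% and 37.0% in ND 1 and ND 2. The early round-like share was 14.5% and 13.7% against 18.3% and 19.0%, and the pachytene-like share 21.4% and 25.3% against 18.4% and 18.1%. In a whole-testis sum, fewer cells of a type and less RNA per cell cannot be told apart. In comparisons added after the data had been seen, limma on log2(CPM + 1) with the mix as measured called 7 of the 7, where it called 51.2% of 15881 genes. When each library was given the same mix of 43 of the 46 clusters, those with at least 10 cells in every library (99.5% of cells), the same limma test called 0 of the 7 and 0.839% of 15851 genes, so the members' count is near the share of all genes. Only Tssk5 then had an unadjusted p under 0.05, as did 2555 of the 15851 genes. The log2 differences of the 7 ranged from -0.10 to 0.05 with a median of -0.02. For each of the 7 genes the difference with the mix held the same was smaller in size than as measured. With the mix as measured, the median was -0.27 in edgeR and -0.28 in limma. The cause of the whole-testis differences was not tested.

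**Figure D4:**
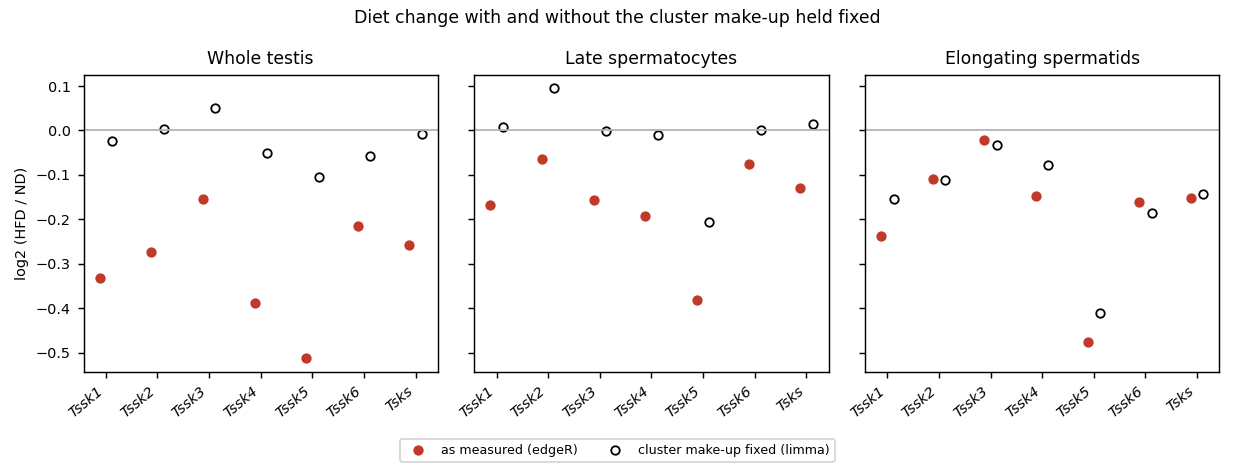
Log2 HFD/ND of each gene as measured (filled, edgeR) and with the cluster mix held the same in every library (open, limma), in whole testis, late-spermatocyte-like and elongating-like cells. Limma with the mix as measured called the same members as edgeR in each panel. In whole testis the filled points lie between -0.51 and -0.15 and the open points between -0.10 and 0.05.

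Testing each germ-cell class on its own, 14 of 54 combinations of a gene and a class were called, and all 14 were lower in HFD. Over all genes 3.92% of 106795 combinations were called, 2032 higher and 2150 lower. The calls are of levels relative to all UMIs of a class, and counts per cell were not tested between diets. The 14 include 3 in pachytene-like cells, at levels not read here as expression by those cells. The members were chosen with earlier results of these data known. After TMM scaling the groups did not overlap in any of these 14, and without it they did not in 12. These combinations were picked by their calls, so the lack of overlap adds no separate evidence. Limma on log2(CPM + 1) with the mix as measured called the same 14. Spermatogonia-like cells were under 50 in some libraries and were not tested, and Tssk5 did not pass the filter on low counts in Car2-led or condensing-like cells. With 2 libraries a diet, an exact permutation test of a single gene cannot go below 0.333, so each call rests on the spread that edgeR shares over genes.

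**Figure D5:**
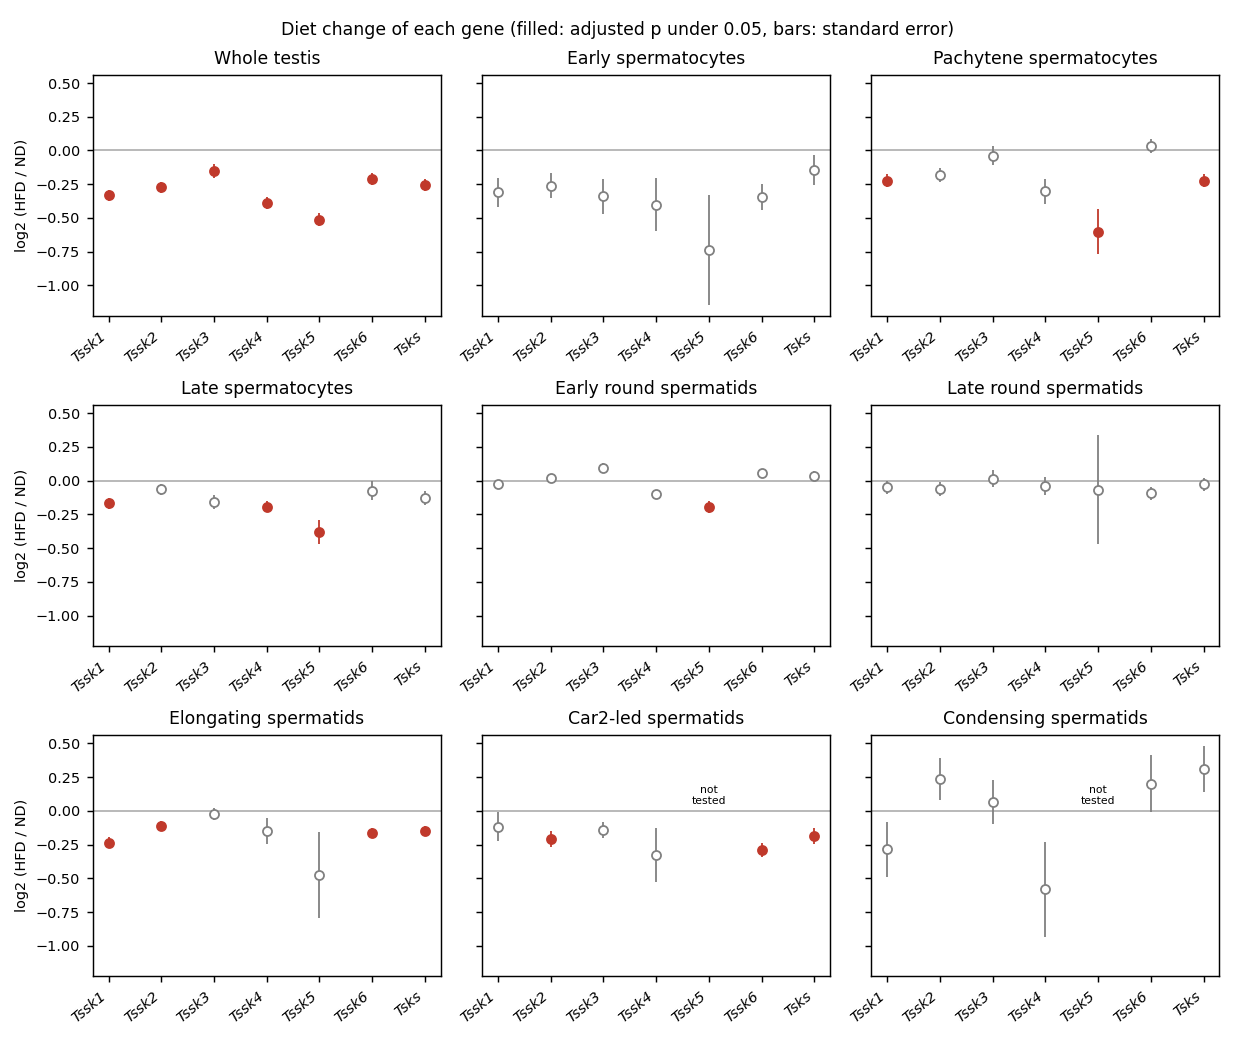
Log2 HFD/ND (y axis) of each gene (x axis) with its standard error, in whole testis and 8 germ-cell classes, from edgeR. Filled red points have an adjusted p under 0.05: 7 in whole testis (34.3% of all genes called), 4 in elongating-like cells (7.34%), none in late round-like (0.0738%) or condensing-like cells (0%).

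In elongating-like cells 4 of 7 genes were lower in HFD, where 7.34% of 12739 genes were called. Tssk1 was 554 and 564 TMM-scaled CPM in HFD 1 and HFD 2 and 650 and 668 in ND 1 and ND 2, a log2 difference of -0.24 ± 0.0406 (SE; edgeR adjusted p = 0.000407). Tssk6 was 1580 and 1535 against 1723 and 1762, a difference of -0.16 (adjusted p = 0.00387). In TMM-scaled CPM both HFD libraries lay below both ND libraries for each gene. Tssk1 UMIs numbered 4983 and 4346 in 1100 and 1120 HFD cells, and 5576 and 5607 in 1324 and 1220 ND cells. Tssk6 UMIs numbered 14202 and 11821 in those HFD cells, and 14784 and 14782 in those ND cells. Per cell, the groups overlapped for both genes. Tsks differed by -0.15 (adjusted p = 0.00963) and its kinase Tssk2 by -0.11 (adjusted p = 0.0486). With the cluster mix held the same (4.45% of genes called by limma) the same 4 were called, at -0.16 for Tssk1, -0.19 for Tssk6, -0.14 for Tsks and -0.11 for Tssk2. The call of Tssk2 was lost with DESeq2 (2.67% of genes called) and with a replicate block (7.55%). With each cell weighted equally (5.12%) Tssk2 and Tsks lost theirs. On library totals without TMM scaling 1 of the 4, Tssk1, was called, where 6.22% of genes were. TMM lowered all log2 HFD/ND differences of this class by 0.0674, the direction of the calls. With called doublets kept all 4 lost their calls (Tssk1 at -0.16, 0.448% of genes called), and at Leiden resolution 1 or with a per-cell marker gate Tssk1 alone was. Tssk6 lost its call without HFD 2 (-0.15), and Tssk2 and Tsks lost theirs without either HFD library.

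In Car2-led cells 3 of the 6 genes tested were lower in HFD, where 5.35% of 9350 genes were called. Tssk6 was 3570 and 3524 TMM-scaled CPM in HFD 1 and HFD 2 against 4454 and 4211 in ND 1 and ND 2, a log2 difference of -0.29 ± 0.0519 (SE; edgeR adjusted p = 1.21e-05). Its UMIs numbered 10939 and 9965 in 637 and 660 HFD cells, and 12379 and 11259 in 771 and 687 ND cells. Per cell, the groups overlapped for Tssk6. Median depth was 3984 and 3537.5 UMIs in HFD 1 and HFD 2 and 3113 and 3319 in ND 1 and ND 2. Tssk2 differed by -0.21 (adjusted p = 0.0121) and Tsks by -0.19 (adjusted p = 0.0334). After TMM scaling all HFD libraries lay below all ND libraries for these 3 genes. Without it the groups stayed apart for Tssk6 but overlapped for Tssk2, at 1043 in HFD 1 and 1030 in ND 2, and for Tsks, at 943 in HFD 1 and 934 in ND 2. The same 3 were called with the cluster mix held the same (3.73% of genes called by limma), at -0.30 for Tssk6, -0.20 for Tssk2 and -0.20 for Tsks. With doublets kept (2.78% of genes called) and with each cell weighted equally (1.99%) Tssk2 and Tsks lost their calls. With DESeq2 (2.2%) Tsks did. TMM lowered all log2 HFD/ND differences of this class by 0.118, the direction of the calls. Without it Tssk6 alone of the 3 was called, where 7.06% of genes were, with -0.09 for Tssk2 and -0.07 for Tsks. Without HFD 1 Tssk6 was at -0.30 and without HFD 2 at -0.28, and neither passed. Tssk2 and Tsks lost their calls without HFD 1, HFD 2 or ND 1, and without ND 1 they stood at -0.11 and -0.10.

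In late-spermatocyte-like cells, where 8.89% of 17129 genes were called, Tssk1, Tssk4 and Tssk5 were lower in HFD. Tssk4 was 136 and 130 TMM-scaled CPM in the HFD libraries against 154 and 150 in the ND libraries, a log2 difference of -0.19 (edgeR adjusted p = 0.00616). Tssk5 was 12.9 and 15.1 against 19.3 and 17.3 (-0.38), and Tssk1 differed by -0.17, both with an adjusted p of 0.0110. Tssk1 UMIs numbered 7151 and 6746 in 1558 and 1785 HFD cells, and 6979 and 6629 in 1759 and 1666 ND cells. Tssk5 UMIs numbered 361 and 414 in those HFD cells, and 460 and 420 in those ND cells. Per cell, the groups overlapped for Tssk1 and stayed apart for Tssk5. Cluster 16, the cluster of the class lowest in Tssk1, held 21.0% and 24.5% of these cells in HFD 1 and HFD 2 and 15.6% and 16.4% in ND 1 and ND 2. With the cluster mix held the same limma called 0 of the 7 and 0.368% of all genes, against 10.2% of all genes by limma with the mix as measured. Of the 7, 2 then had an unadjusted p under 0.05, as did 1403 of 13869 genes. Tssk1 stood at 0.01, Tssk4 at -0.01 and Tssk5 at -0.21. Leaving out HFD 2 ended the calls of Tssk1 and Tssk4, and leaving out HFD 1 that of Tssk5 (-0.27). All 3 calls were lost without a gene filter, where 0% of 31994 genes were called, and with doublets kept, where 0.361% of genes were and Tssk1, Tssk4 and Tssk5 stood at -0.05, 0.00081 and 0.0089.

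In early round-like cells, which hold most UMIs of Tssk1, Tssk4 and Tssk5, Tssk5 was the 1 gene called, where 2.07% of 18610 genes were. It was 51.3 and 51.0 TMM-scaled CPM in HFD 1 and HFD 2 and 59.0 and 57.9 in ND 1 and ND 2, a log2 difference of -0.19 ± 0.0449 (SE; edgeR adjusted p = 0.0395). The adjusted p passed the threshold narrowly, and the call was lost without either HFD library, with DESeq2 (-0.20), without TMM (-0.18), at Leiden resolution 1 (-0.19) and with each cell weighted equally (-0.18). Of its 3 clusters richest in Tssk5, clusters 4 and 17 held 21.8% and 11.4% of these cells in HFD 1, 23.7% and 12.1% in HFD 2, 25.5% and 14.7% in ND 1 and 25.1% and 14.7% in ND 2. Cluster 33, the other one, held 4.53% and 4.74% in the HFD libraries and 3.71% and 4.30% in the ND libraries. With the cluster mix held the same the difference was -0.08 and not called, where limma called 0.408% of all genes against 3.09% with the mix as measured. Tssk1 was 841 and 859 against 882 and 847, overlapping, with a difference of -0.02.

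In late round-like cells 0 of the 7 were called by edgeR, with 0.0738% of 12192 genes called. None had an unadjusted edgeR p under 0.05, against 964 of the 12192 genes. DESeq2 and limma with voom called 0 of the 7, and their log2 differences in edgeR ran from -0.09 to 0.01. In condensing-like cells 0 of 6 were called, where 0% of 5530 genes were and 284 had an unadjusted p under 0.05. None of the 6 did, and DESeq2 and voom called 0. Tssk6 there was 8139 and 5740 TMM-scaled CPM against 5430 and 6650, with HFD 1 above the other 3 libraries and the groups overlapping. Its log2 difference of 0.20 had an SE of 0.212 and became -0.07 without HFD 1. A per-cell marker gate, which formed a larger class, turned it to -0.18 and called it (edgeR adjusted p = 0.00169, 6.14% of genes called). With doublets kept, also a larger class, it turned negative too.

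In early-spermatocyte-like and pachytene-like cells all 7 levels in CPM lay below those of Leydig-like cells, except Tssk5 in early-spermatocyte-like cells at 2.62 against 2.45. Median depth was 10183 and 12274 UMIs in these classes and 5780 in Leydig-like cells. The order in CPM did not hold per cell for Tssk1, with 0.484 and 0.513 UMIs per cell against 434 UMIs in 1281 Leydig-like cells. In pachytene-like cells Tssk1 (-0.23), Tsks (-0.22) and Tssk5 (-0.60) were called lower, where 4.14% of 18301 genes were called. Tssk5 there was 1.59 and 1.65 TMM-scaled CPM against 2.57 and 2.35, below or near its 2.45 in Leydig-like cells. Median depth of pachytene-like cells was 17502.5 and 12359.5 UMIs in HFD 1 and HFD 2 and 7178 and 13155 in ND 1 and ND 2. Tssk1 UMIs numbered 1517 and 1550 in 2810 and 3422 HFD cells, and 1328 and 1407 in 2668 and 2505 ND cells, overlapping per cell. The calls of all 3 were lost without HFD 1, without ND 1 and without ND 2, and also without a gene filter, where 0% of 33055 genes were called. With the cluster mix held the same limma called 0 of the 7 (median -0.19) and 0.538% of 13388 genes. An unadjusted limma p under 0.05 was held by 5 of the 7 and by 1933 of all genes. DESeq2 called 0 of the 6 members to which it gave an adjusted p, and 1.48% of genes. In early-spermatocyte-like cells 0 of 7 were called by edgeR, DESeq2 or voom, with 0.564% of 12944 genes called by edgeR. All 7 stood lower in HFD, with log2 differences from -0.74 to -0.14 and a median of -0.34. An unadjusted edgeR p under 0.05 was held by 5 of the 7 and by 1592 of the 12944 genes. The part in these differences of RNA from other cells was not tested.

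Whether a diet difference itself changed between neighbouring classes was tested with a class-by-diet term, for 48 combinations of a gene and a pair, of which 4 passed. From late-spermatocyte-like to early round-like cells (3.58% of genes called) the log2 difference moved up by 0.25 ± 0.0465 (SE) for Tssk3 (edgeR adjusted p = 0.000129), by 0.14 for Tssk1 (0.000306) and by 0.16 for Tsks (0.00136). From early-spermatocyte-like to pachytene-like cells (0.0607% of genes called) it moved up by 0.41 for Tssk6 (adjusted p = 0.0319), both classes lying below the Leydig-like level of that gene in CPM. No member passed for the pairs late-spermatocyte-like minus pachytene-like (2.68% of genes called), late round-like minus early round-like (0.322%), elongating-like minus late round-like (0.301%), Car2-led minus elongating-like (0.296%) or condensing-like minus Car2-led (0.152%). A difference called in elongating-like and not in late round-like cells was thus not shown to differ between them. Of the 4, that of Tssk3 alone was kept without HFD 2, and those of Tssk1 and Tssk3 without ND 1. Without the library term edgeR called 0 of the 48, of which 12 had an unadjusted p under 0.05, and 47 of 109603 combinations over all genes, against 1371 with it.

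Partners and substrates of the kinases, other germ-cell kinases and sperm phosphatases were counted as 3 lists. Of 63 gene and class combinations of 8 partners and substrates, 2 were higher and 3 lower in HFD. Of 123 combinations of 16 other germ-cell kinases 4 were higher and 3 lower, and of 63 combinations of 8 sperm phosphatase genes 1 was higher and 3 were lower. For the 7 members the counts were 0 and 14 of 54. The shares called were 7.94%, 5.69%, 6.35% and 25.9% in that order, beside 3.92% of all 106795 combinations of a gene and a class. The members and lists were chosen with earlier results of these data known. The 54 combinations are 7 genes in the same libraries, and include the pachytene-like calls not read here as expression. These shares are therefore a description and carry no test. In whole testis the partners' median log2 difference was 0.06, with 1 gene higher and 2 lower, that of the kinases 0.07, with 6 and 6, and that of the phosphatases 0.01, with 2 and 1, in the comparison where 34.3% of all genes were called.

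Odf2, the TSSK4 substrate in the outer dense fibres, was lower in elongating-like cells at -0.13 (edgeR adjusted p = 0.00585) and in Car2-led cells at -0.16 (adjusted p = 0.0313). Hsp90aa1, a chaperone that holds client kinases, was higher in elongating-like cells at 0.29 (adjusted p = 0.000182) and in Car2-led cells at 0.22 (adjusted p = 0.00997). Its levels there were 600 and 974 CPM, against 5521 in early-spermatocyte-like cells, its highest class. In that class it stood at 0.05 (edgeR adjusted p = 0.647). The part in these differences of RNA from other cells was not tested. Tsacc, the co-chaperone that links TSSK kinases to HSP90, stood at -0.17 in Car2-led cells (adjusted p = 0.0565). Hspa8, a constitutive heat shock protein, was lower in whole testis at -0.14 (adjusted p = 0.0174) and in late-spermatocyte-like cells at -0.32 (adjusted p = 0.0291), and its highest class, the spermatogonia-like cells, was not tested. Tsacc and Hspa8 are named here after their values were seen.

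Hipk4, a spermatid kinase, was lower in early round-like cells, its highest class, at -0.20 (edgeR adjusted p = 0.0135), in late-spermatocyte-like cells at -0.25 and in elongating-like cells at -0.38. Aurkc, a meiotic kinase, was higher in whole testis at 0.33 (adjusted p = 0.000117) and in pachytene-like cells at 0.23 (adjusted p = 0.0156), and stood at 0.17 in late-spermatocyte-like cells, its highest class (adjusted p = 0.0575). Tesk1 was higher in whole testis at 0.10 (adjusted p = 0.0405) and stood at 0.15 in condensing-like cells (adjusted p = 0.970). Among phosphatase genes, Dusp13 was lower in elongating-like cells at -0.36 (adjusted p = 0.000142) and stood at -0.07 in late round-like cells, its highest class. Ppp3r2, the calcineurin subunit of sperm, was higher in early-spermatocyte-like cells at 0.26 (adjusted p = 0.0115). Styx was higher in whole testis at 0.29 (adjusted p = 0.000319) and stood at 0.13 in early-spermatocyte-like cells (adjusted p = 0.676). The library mix of clusters was not held fixed in these list counts.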

How the data were processed

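UMI counts per gene and barcode were used as deposited, in 10x matrix layout written by software version 3.0.2 per the file headers, with build mm10 per the submitters' processing notes. The aligner and annotation are not given in the sources used here. Dense copies of the counts were not used. Barcodes under 200 genes or over 20% mitochondrial UMIs were left out, and so were doublets called by Scrublet (scanpy 1.11.5, rate 0.1). Clusters came from 2000 variable genes without the 7 members, 30 components, 20 neighbours and Leiden resolution 2, and were named from 100 marker genes. Sums per library and class, in classes with at least 50 cells in every library, were tested with edgeR 4.0.16 (filterByExpr, TMM, quasi-likelihood) in R 4.3.3. DESeq2 1.42.0, limma 3.58.1 with voom, a replicate block, other filters and cell sets, and leaving out each library were alternatives. A fixed cluster mix, limma on log2(CPM + 1) without it and library totals without TMM were added after seeing the data.

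All 7 members are described. Of the other genes, those called in any fit were named, up to 3 a list by size of change in their highest class, which Hspa8 lacks because that class was not tested, and for likeness the 3 genes of highest r. The members and the lists were chosen with earlier results of these data known. On simulated counts the elongating-like fit (12739 genes) recovered 38.6% of genes changed 1.25-fold and 78.1% of those changed 1.5-fold, and the condensing-like fit (5530 genes) 20.0% and 68.1%. Those counts had a dispersion of 0.002 for every gene, and only genes with higher counts were changed. Tssk6 in the condensing-like HFD libraries had an SD of 1697 on a mean of 6939 TMM-scaled CPM. For genes of wider spread than simulated the rates overstate what could be found.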

Additional observations from a re-analysis of the deposited data

Results flagged for a closer look

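A class-by-diet term in edgeR, a test of the change itself, called a change between neighbouring classes in the diet difference of 4 genes. It called 3.58% of all genes from late-spermatocyte-like to early round-like cells and 0.0607% from early-spermatocyte-like to pachytene-like cells. Without the library term 0 of the 48 combinations of a member and a pair passed. From late-spermatocyte-like to early round-like cells the log2 HFD/ND of Tssk1 moved from -0.17 to -0.02, a change of 0.14 in that fit. That of Tssk3 moved from -0.16 to 0.09, a change of 0.25, and that of Tsks from -0.13 to 0.04, a change of 0.16. From early-spermatocyte-like to pachytene-like cells the Tssk6 difference moved from -0.35 to 0.03, a change of 0.41, where its levels in CPM were 66.0 and 37.5, below the 75.3 of Leydig-like cells. With the cluster mix held the same, the late-spermatocyte-like differences of Tssk1, Tssk3 and Tsks were 0.0078, -0.0014 and 0.014. The early round-like differences of the 7 genes then lay between -0.10 and 0.03. The part of the cluster mix in these changes was not tested in the class-by-diet fit.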

How the results depend on the processing

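With 2 libraries a diet, 1 library can end a call. The 7 whole-testis calls were 0 with the cluster mix held fixed and tested by limma (0.839% of all genes called), 7 by limma with the mix as measured (51.2%), and 5 to 7 with 1 library left out (19.4% to 32.2%). Against 14 calls by class as reported (3.92% of all gene and class combinations), there were 8 without a gene filter (0.806%), 7 with DESeq2 (1.34%), 7 with doublets kept (2%), 4 with each cell weighted equally (1.12%), 7 with the cluster mix held fixed (1.2%) and 14 by limma with the mix as measured (3.84%). With 1 library left out there were 4 to 14. Of the 14 reported calls, 4 were kept without HFD 1 (1.61% of all combinations called), 3 without HFD 2 (1.29%), 9 without ND 1 (5.37%) and 11 without ND 2 (3.89%), beside 0, 1, 4 and 3 gained. With doublets kept 4 of the 14 were kept and 3 gained. Leiden resolution 1 kept 9 and gained 4 (5.13%), the marker gate 6 and 6 (2.87%), and totals without TMM 8 and 2 (4.05%). Against the 4 changes between classes that passed as reported (1371 of 109603 over all genes), there were 0 without the library term (0.0429%), 7 at Leiden resolution 1 (1.94%), of which 3 were among the 4, and 2 to 6 with 1 library left out (0.576% to 0.996%). Of the 4, 4 were kept without HFD 1, 1 without HFD 2, 2 without ND 1, 3 without ND 2 and 1 with the marker gate. Tssk1 peaked in late round-like cells at Leiden resolution 1 and with a per-cell marker gate, Tssk3 in condensing-like cells with doublets kept or the gate, and Tsks in condensing-like cells with doublets kept. These classes held partly different cells: condensing-like cells numbered 181 to 242 per library as reported, 563 to 725 with doublets kept and 1107 to 1390 with the gate, and Car2-led cells 637 to 771, 270 to 327 and 0. Under that gate 16.2% of cells lay within 0.1 of the cut. DESeq2 gave an adjusted p for 6 of 7 genes in pachytene-like, 5 of 7 in elongating-like and 4 of 6 in Car2-led cells.

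The replicate block gave 18 calls by class (5.6% of all combinations called), of which 13 were among the 14 and 5 were gained, and 7 in whole testis; it ended the call of Tssk2 in elongating-like cells. Same-numbered libraries deviated together with a correlation of -0.10 to 0.05 over the genes of each comparison. Such a value cannot tell whether they shared a run, and what the numbers stand for is not given in the sources used here.

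Some differences changed sign. Tssk1 in early round-like cells ranged from -0.055 to 0.0045 with 1 library left out, the latter without ND 1. With the mix fixed, Tssk1 became 0.0078 in late-spermatocyte-like cells, and Tssk2 0.0026 and Tssk3 0.050 in whole testis. With doublets kept, Tssk4 became 0.00081 and Tssk5 0.0089 in late-spermatocyte-like cells. Tssk6 in condensing-like cells, over the larger classes given above, became -0.16 with doublets kept and -0.18 with the gate (edgeR adjusted p = 0.00169). Over the class as reported it became -0.014 with cells weighted equally, and ranged from -0.069 without HFD 1 to 0.44 without HFD 2. For each gene in whole testis, in its highest class and in the classes where it was called, 299 alternative values kept direction and side of the threshold, 95 lost the call with the same sign, 2 gained one and 10 changed sign. Calls gained elsewhere are outside this count. The causes were not tested. Tssk5 did not pass the filter on low counts in Car2-led and condensing-like cells, and so was not tested there.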

Other observations

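The unnamed cells included 2 clusters of low depth that lay nearest the early round spermatid list, cluster 7 with 2079 cells and cluster 11 with 1431 cells, at median depths of 1819 and 1868 UMIs. Tssk5 stood at 61.4 CPM in cluster 7 and 49.0 CPM in cluster 11, beside 54.7 in the named early round-like class. Tssk1 stood at 239 CPM and 246 CPM in these clusters, beside 856 in the named class, and Tssk4 at 135 CPM and 74.2 CPM beside 364. In the other unnamed clusters Tssk5 lay between 3.96 and 14.6 CPM. These clusters entered no class, and no test was made on them.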
